A study of Drosophila melanogaster with 12 samples.

Results

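The genes described here act in the light-sensing cells of the fly eye: rdgA and rdgB in the turnover of membrane lipids that carries the light signal, rdgC, Cpn and Calx in calcium-dependent control, and chp, eys, prom and crb in building the light-sensing membrane. They were taken as every probe set (a group of short probes on the array that reports 1 transcript or set of transcripts) whose only gene in the platform's probe-to-gene table is one of these 9. That gave 19 probe sets for the 9 genes, of 18952 probe sets and 11982 named genes on the array. rdgA and eys had 4 probe sets each, prom had 3, rdgB and rdgC had 2 each, and Cpn, Calx, chp and crb had 1 each.

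The study measured total RNA of whole Drosophila melanogaster heads on 12 Affymetrix arrays. Its 4 groups of 3 arrays were flies that had been conditioned by a behavioural stimulus and flies that had not, each taken 0 h and 24 h later. All 12 carry the word OR, which the labels do not spell out, and the kind of conditioning, the sex and the age are not stated there. The labels call 2 arrays of the conditioned flies at 0 h, and 1 of those at 24 h, biological duplicates and are silent on the rest, so p-values reflect the spread among these samples, part of which may be technical.

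In fly photoreceptors, light-activated rhodopsin starts a G protein cascade in which a phospholipase splits a phosphoinositide of the rhabdomere, the densely packed stack of microvilli that holds the visual pigment. Ion channels then open, calcium enters, and the lipid must be rebuilt through phosphatidic acid before the cell can respond again. Loss of several of the genes described here makes the fly retina degenerate, which gave the rdg genes their name (retinal degeneration).

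Values are deposited intensities, a linear scale of probe brightness that had been brought to the same level on all arrays: the mean after trimming 2% was 150.0 on each. Differences are on a log2 scale after adding 16 and come from limma, with Benjamini-Hochberg adjustment over the 11261 brighter probe sets and a threshold of 0.05. All 19 probe sets were among these. The 12 arrays carried clear signal of the photoreceptor transcripts trp and Arr2, whose summed intensity lay between 10871 and 17665. The rhodopsin genes and norpA are not named in the platform table and were not analysed here. Yolk protein transcripts, made mostly in female fat body, summed to 8629 in replicate 3 of the conditioned group at 0 h. In replicates 1 and 2 of the conditioned group at 24 h they summed to as much as 17710.3. In each of the other 9 arrays the sum was far lower, between 199 and 277. Replicate 3 of the non-conditioned group at 0 h had 563 summed units of accessory gland transcripts, against at most 27.0 on any other array. In whole heads, fewer photoreceptors and less RNA per photoreceptor cannot be told apart.

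Averaged over both arms, Cpn had the largest difference between the times of the 19 probe sets, and it was lower at 24 h than at 0 h in both arms. Cpn encodes calphotin, an abundant calcium-binding protein of the photoreceptor cytoplasm. At 0 h its intensity was 2468, 2308 and 2319 in the non-conditioned arrays and 2212, 2154 and 2299 in the conditioned arrays. At 24 h it was 1846, 1926 and 1994 in the non-conditioned and 1738, 1750.3 and 1747 in the conditioned arrays. All 6 arrays at 24 h lay below all 6 arrays at 0 h, as in 5.53% of the probe sets tested in either direction. Group means were 2365 ± 89.2 and 2221 ± 73.1 at 0 h and 1922 ± 74.1 and 1745 ± 6.51 at 24 h (non-conditioned, then conditioned; SD, n = 3 arrays each). Cpn fell by 0.30 on the log2 scale without conditioning (SE 0.06, limma adjusted p = 0.00452). After conditioning it fell by 0.34 (SE 0.06, limma adjusted p = 0.00194). On a linear scale, the level fell by 18.6% in the non-conditioned arm and fell by 21.3% in the conditioned arm. Averaged over both arms the difference was -0.32 (95% interval -0.41 to -0.24, adjusted p = 6.19e-05). The interaction, which asks whether the arms differ in this change, was -0.05 ± 0.08 (SE) and did not pass (adjusted p = 0.949).

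**Figure D1:**
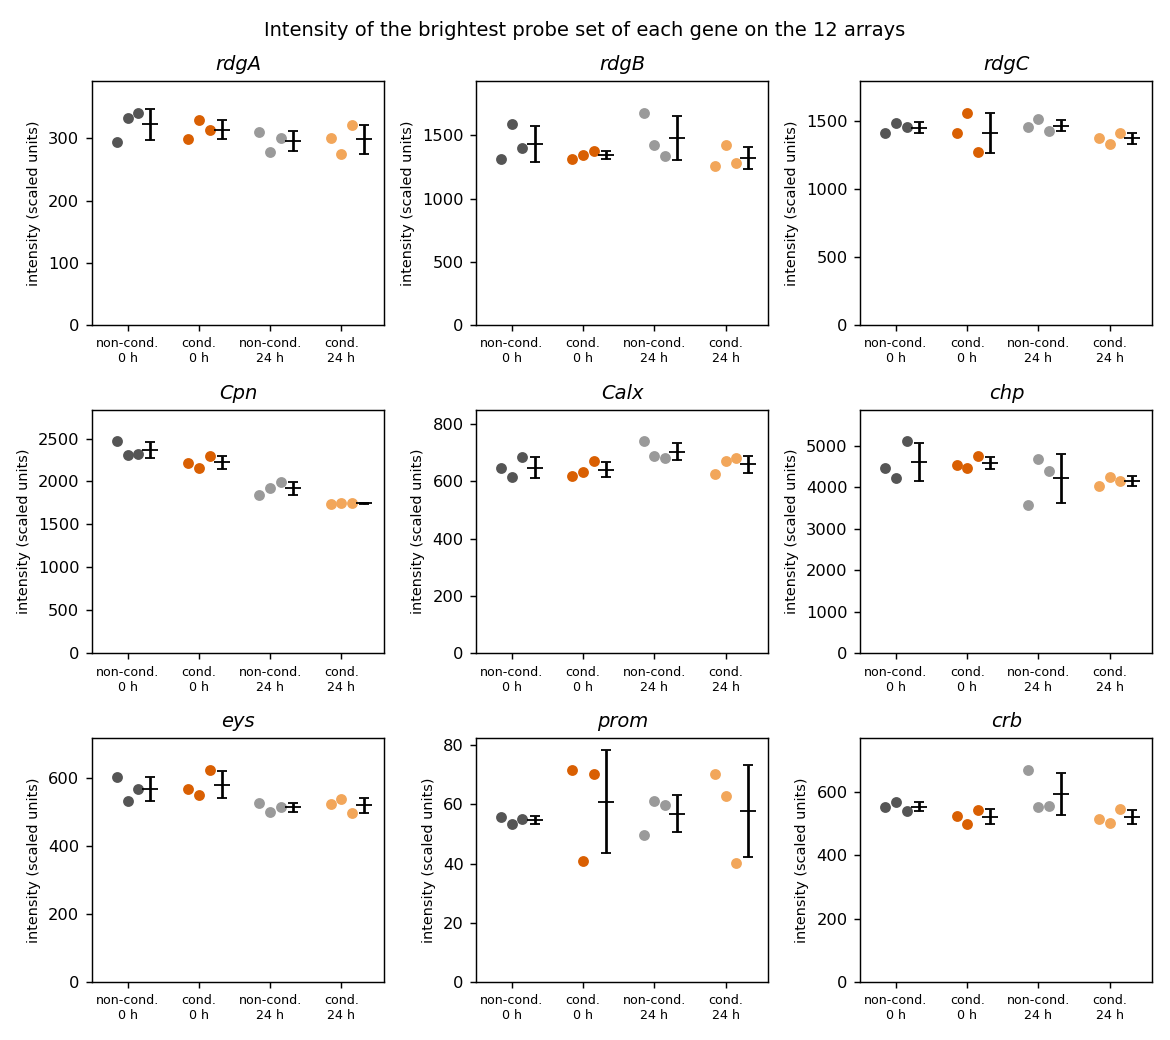
Deposited intensity (linear scaled units, axes from 0) of the brightest probe set of each of the 9 genes on all 12 arrays, with points for single arrays and black bars for the group mean ± SD. For Cpn the 6 arrays at 24 h lie between 1738 and 1994, all below the 6 arrays at 0 h, whereas for the other 8 genes the points of the times overlap.

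Within each time, Cpn was also lower in every conditioned array than in every non-conditioned one. The difference was -0.09 ± 0.06 (SE) at 0 h (limma adjusted p = 0.561) and -0.14 ± 0.06 at 24 h (adjusted p = 0.999), so neither passed. Averaged over both times it was -0.11 (95% interval -0.20 to -0.03, adjusted p = 0.373). Groups that do not overlap are common in these data: 17.6% of all probe sets tested had them between the arms at 0 h and 10.5% at 24 h.

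The fall of Cpn between the times was present among the 8 arrays with a # in their title, 2 per group, where it was -0.33 on average (limma adjusted p = 0.00463). On the other 4 arrays, 1 per group and without a test, Cpn went from 2319 to 1994 without conditioning and from 2299 to 1747 after it. Without the 3 arrays with yolk signal the averaged difference was -0.32 (adjusted p = 0.0421). In the conditioned arm, which then keeps 1 array at 24 h, it was -0.34 and no longer passed (adjusted p = 0.644); the fit takes the lone array to vary like the other groups.

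Genes of the light response itself differed less between the times. Of 23 listed phototransduction genes, 12 were named and tested, and their differences averaged over both arms ran from -0.16 to 0.23. Their median was -0.06, against -0.01 over all probe sets tested. Cpn minus the mean log2 level of these 12 genes on the same array lay between -0.16 and 0.07 at 0 h and between -0.42 and -0.20 at 24 h, without overlap. Means were -0.06 ± 0.08 and -0.33 ± 0.09 (SD, n = 6 arrays each), a difference of -0.27. The difference was -0.24 in the non-conditioned and -0.30 in the conditioned arm, while the reference itself differed by -0.05 and -0.04. This ratio was added after the fall of Cpn had been seen and is a description, without a test.

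**Figure D2:**
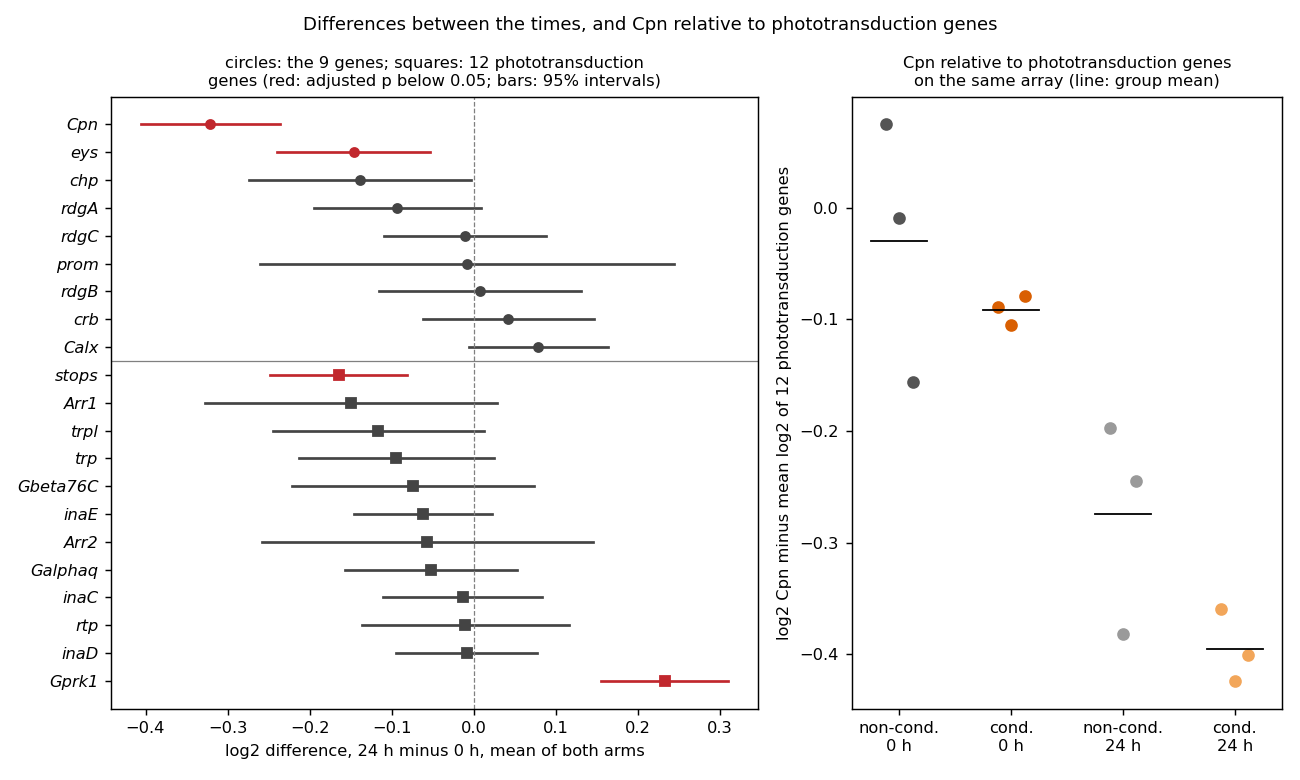
Left, log2 difference between 24 h and 0 h averaged over both arms for the 9 genes (circles, brightest probe set each) and 12 phototransduction genes (squares), with 95% intervals and red for an adjusted p below 0.05. Right, log2 level of Cpn minus the mean of these 12 genes on each of the 12 arrays, which is -0.16 or higher at 0 h and -0.20 or lower at 24 h.

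Of the muscle markers, 1 of 2 tested, up, fell between the times. The muscle markers Act88F, TpnC4 and up (3 named of 4 listed) summed to between 482 and 556 at 0 h and between 394 and 436 at 24 h. Nearly all of that sum was up, which encodes troponin T, at 455, 431 and 491 in non-conditioned and 470.4, 461 and 472 in conditioned arrays at 0 h. At 24 h up was at 400.5, 359 and 401 in non-conditioned and 371, 369 and 352 in conditioned arrays, all below the arrays at 0 h. It fell by 0.29 on average (limma adjusted p = 0.000215), whereas Act88F, at -0.23, did not pass (adjusted p = 0.408) and TpnC4, of flight muscle, was at or below 9.26 on every array. The photoreceptor markers trp and Arr2 had averaged differences of -0.09 (adjusted p = 0.339) and -0.06 (adjusted p = 0.784). The neuronal markers elav, nSyb and brp, none of which passed, summed to between 1549 and 1744 at 0 h and between 1497 and 1545 at 24 h in the conditioned arm, and overlapped between the times in the non-conditioned arm. The part of muscle or other neuronal RNA in the values of Cpn and eys was not tested.

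Of the other genes of calcium-dependent control, rdgC encodes a calcium-activated protein phosphatase that removes phosphate from rhodopsin. Its brighter probe set, 1637386_at, was at 1410.3, 1486 and 1459 in non-conditioned and 1410.0, 1560.5 and 1269 in conditioned arrays at 0 h. At 24 h the values were 1459, 1512 and 1429.7 in non-conditioned and 1375, 1333 and 1413 in conditioned arrays, with every conditioned array below every non-conditioned one. That difference was -0.09 ± 0.07 (SE, limma adjusted p = 0.999) and did not pass. The other probe set, 1634061_a_at, had 666, 629 and 668 in non-conditioned and 669.5, 647 and 606 in conditioned arrays at 0 h. Arrays at 24 h had 671, 650.2 and 703 in non-conditioned and 716, 704 and 693 in conditioned arrays. Its conditioned arrays were all higher at 24 h than at 0 h, by 0.13 (adjusted p = 0.201), where the brighter probe set had -0.04.

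Calx encodes the sodium-calcium exchanger that carries calcium out of the cell after light. Its intensity was 645, 614 and 685 in non-conditioned and 618, 631 and 669.8 in conditioned arrays at 0 h. The 24 h values were 739, 689 and 683 in non-conditioned and 625, 670.4 and 681 in conditioned arrays, with every conditioned array below every non-conditioned one. The 24 h difference with conditioning was -0.09 (95% interval -0.21 to 0.03, limma adjusted p = 0.999). Between the times Calx differed by 0.12 without (adjusted p = 0.293) and 0.04 after conditioning, opposite in sign to Cpn, and neither difference passed.

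**Figure D3:**
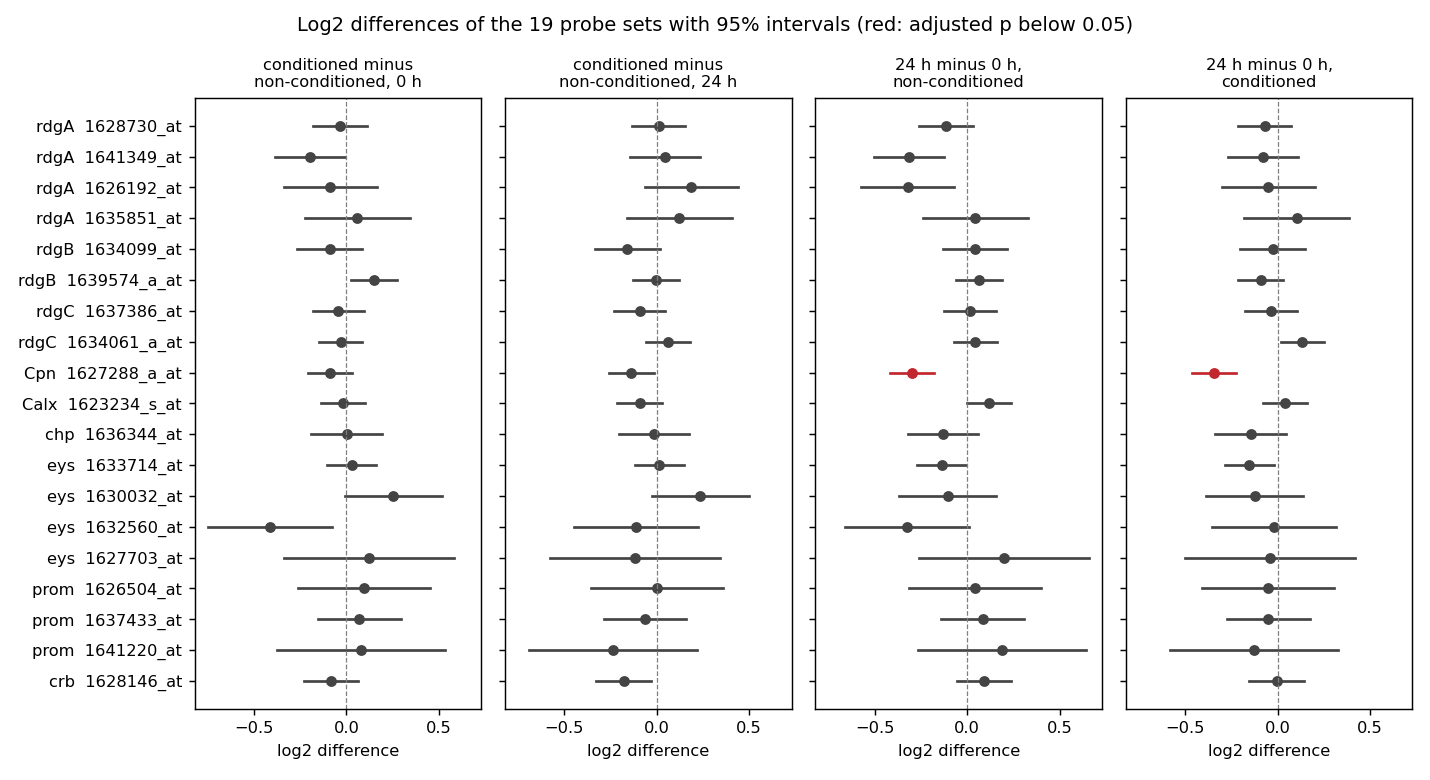
Log2 differences (limma, points) with 95% intervals (lines) of the 19 probe sets in 4 comparisons, with red for an adjusted p below 0.05. Only Cpn is red, at -0.30 and -0.34 in the comparisons of the times, and no probe set is red in the comparisons of conditioning.

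Of the lipid cycle genes, rdgA encodes the diacylglycerol kinase of the eye, which turns diacylglycerol into phosphatidic acid. Its brightest probe set, 1628730_at, gave 294, 332 and 341 in non-conditioned and 299, 329.7 and 314 in conditioned arrays at 0 h. At 24 h it gave 309.7, 278 and 301 in non-conditioned and 300.4, 274 and 321 in conditioned arrays. All 4 groups overlapped, and the difference between the times averaged -0.09 (95% interval -0.19 to 0.01, limma adjusted p = 0.258). A second probe set, 1641349_at, differed more between the times. It gave 369, 296 and 294 in non-conditioned and 258, 268 and 303 in conditioned arrays at 0 h. The 24 h values were 271, 232 and 254 without and 277, 259 and 245 with conditioning, so that the times were separate in the non-conditioned arm and overlapped in the conditioned arm. The differences of -0.32 ± 0.09 (SE) in the non-conditioned arm and -0.20 ± 0.06 on average fell just short of the threshold (adjusted p = 0.0514 and 0.0535). With 1 array left out, each passed in 4 of 12 cases. Without replicate 1 of the non-conditioned group at 0 h, the highest array, the non-conditioned difference was -0.21 (adjusted p = 0.213) and the average -0.14 (adjusted p = 0.126).

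The third rdgA probe set, 1626192_at, was also lower at 24 h in the non-conditioned arm, with 235, 278 and 240.0 at 0 h against 233, 162 and 202 at 24 h and no overlap. In the conditioned arm the arrays overlapped, with 278, 201 and 232 at 0 h and 218, 243 and 219.9 at 24 h. The non-conditioned difference was -0.32 (limma adjusted p = 0.145). Without replicate 1 of the non-conditioned group at 24 h, the highest there, it was -0.44 and passed (adjusted p = 0.0469). In no other alternative fit did this probe set pass. The remaining dim probe set, 1635851_at, lay between 19.9 and 36.6 and had differences of 0.04 and 0.10 between the times, in the other direction. So 3 of the 4 rdgA probe sets had a negative difference between the times in both arms, and none passed. For conditioning, the 4 differences ran from -0.20 to 0.06 at 0 h and from 0.01 to 0.19 at 24 h.

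The phosphatidylinositol transfer protein encoded by rdgB, which returns lipid to the rhabdomere membrane, showed no difference past the threshold. Its brighter probe set, 1634099_at, had 1313, 1593 and 1403 in non-conditioned and 1314, 1342 and 1376 in conditioned arrays at 0 h. At 24 h it had 1679.6, 1424 and 1341 in non-conditioned and 1256, 1423 and 1283 in conditioned arrays. The non-conditioned groups were more spread, with an SD of 143 at 0 h and 176 at 24 h, than the conditioned groups, with 30.8 and 89.5. Differences with conditioning of -0.09 at 0 h and -0.16 at 24 h lay within overlapping groups. Probe set 1639574_a_at showed the opposite sign at 0 h, with 204, 201 and 175 in non-conditioned and 222, 214 and 211 in conditioned arrays. These groups do not overlap, but the difference of 0.15 ± 0.06 (SE) did not pass (limma adjusted p = 0.291), and at 24 h it was 0.00, with 214, 209 and 184 against 209.8, 209.6 and 185.

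Of the genes that build the rhabdomere, chp encodes chaoptin, a surface protein that holds the microvilli together. Its intensity was 4473, 4227 and 5113 in non-conditioned and 4552, 4475 and 4753 in conditioned arrays at 0 h. Later, at 24 h, it was 3569.6, 4698 and 4387 in non-conditioned and 4026, 4262 and 4153 in conditioned arrays. The times were separate in the conditioned arm, at -0.15 (limma adjusted p = 0.438), and overlapped in the non-conditioned arm, at -0.13. On average chp differed by -0.14 (95% interval -0.27 to -0.0035, adjusted p = 0.192). Without replicate 2 of the non-conditioned group at 24 h, its highest array at that time, the difference was -0.19 and passed (adjusted p = 0.0138). In no other alternative fit did chp pass. Conditioning gave differences of 0.00 at 0 h and -0.02 at 24 h.

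The secreted proteoglycan encoded by eys (eyes shut) fills the space between the rhabdomeres, and it was the only other gene of the 9 with a difference past the threshold. Its brightest probe set, 1633714_at, had intensities of 601, 530.2 and 568 in non-conditioned and 566, 548 and 623 in conditioned arrays at 0 h. At 24 h the intensities were 526, 499 and 514 in non-conditioned and 521, 538 and 495 in conditioned arrays. Within each arm the 24 h arrays lay below the 0 h arrays, but 1 array of the conditioned group at 24 h lay above 1 non-conditioned array at 0 h. The averaged difference passed at -0.15 ± 0.04 (SE, limma adjusted p = 0.0414). The separate differences, -0.14 without and -0.15 after conditioning, did not (adjusted p = 0.255 and 0.191). The averaged call is fragile: with 1 array left out it passed in 4 of 12 cases, and the adjusted p ran from 0.0266 to 0.134. Among the # arrays alone the difference was -0.10 (adjusted p = 0.341). Conditioning gave 0.03 at 0 h and 0.01 at 24 h, with overlapping groups.

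The other 3 probe sets of eys were dim, and none passed in any comparison. Between the times their averaged differences were -0.12 (1630032_at), -0.17 (1632560_at) and 0.08 (1627703_at), beside -0.15 for the brightest one. Probe set 1630032_at had intensities of 20.2, 27.2 and 29.1 in non-conditioned and 33.6, 33.0 and 33.2 in conditioned arrays at 0 h, which do not overlap. At 24 h its values were 18.9, 22.6 and 26.1 in non-conditioned and 34.0, 25.8 and 28.1 in conditioned arrays, which do overlap. Its difference with conditioning, 0.25 at 0 h and 0.24 at 24 h, did not pass (limma adjusted p = 0.425 and 0.999). Probe set 1632560_at lay between 6.97 and 23.4 over the 12 arrays, and its difference with conditioning at 0 h had the opposite sign, -0.41 (adjusted p = 0.286). Probe set 1627703_at lay between 3.32 and 22.8, with no order of the groups. Pearson correlations of the 4 probe sets over the 12 arrays, a description without a test, ran from -0.29 to 0.20.

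crb encodes crumbs, an apical membrane protein that lengthens the stalk membrane and the rhabdomere as the photoreceptor grows. Its intensity was 554, 569 and 542 in non-conditioned and 526, 499 and 544 in conditioned arrays at 0 h. At 24 h it was 672, 554 and 556 in non-conditioned and 515, 502 and 546 in conditioned arrays, which do not overlap. The 24 h difference with conditioning, -0.18 ± 0.07 (SE), was the largest of the 9 brightest probe sets and did not pass (limma adjusted p = 0.999). Averaged over both times it was -0.13 (adjusted p = 0.386). Replicate 1 of the non-conditioned group at 24 h held the highest value of crb, of Calx and of rdgB 1634099_at, and the lowest of chp. On that array Arr2 was at 6961, the lowest of the 12, where the other 11 lay between 8978 and 12535. The part of this array's low top intensity in these values was not tested.

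The pentaspan membrane protein encoded by prom (prominin), which keeps neighbouring rhabdomeres apart together with eyes shut, was dim in whole heads. Probe set 1626504_at gave 55.6, 53.3 and 55.2 in non-conditioned and 71.7, 40.7 and 70.2 in conditioned arrays at 0 h. It gave 49.6, 61.1 and 59.9 in non-conditioned and 70.2, 62.8 and 40.3 in conditioned arrays at 24 h. The conditioned groups were spread widely, with SDs of 17.5 at 0 h and 15.6 at 24 h, and held both the lowest and the highest array at each time. The other probe sets lay between 39.2 and 51.0 (1637433_at) and between 14.9 and 50.5 (1641220_at). No prom difference passed, and the 95% intervals of 1626504_at for conditioning, -0.26 to 0.45 at 0 h and -0.36 to 0.36 at 24 h, were the widest among the brightest probe sets of the 9 genes.

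Counted together, the 19 probe sets passed the adjusted threshold about as often as probe sets in general. For conditioning, 0 of 19 passed limma's threshold at 0 h, where 0.533% of all probe sets did, and 3 of 19 had an unadjusted p below 0.05, beside 12.2% of all. At 24 h 0 of 19 passed against 0% of all, and 2 (10.5%) had an unadjusted p below 0.05, beside 4.30% of all. The interaction gave 0 of 19 against 0%, with 0 at an unadjusted p below 0.05 beside 7.17% of all. The effect of conditioning averaged over the times gave 0 of 19 against 0.115%, with 5 (26.3%) at an unadjusted p below 0.05 beside 10.2% of all. The medians of the 19 differences were -0.02 at 0 h and -0.02 at 24 h, beside 0.01 and 0.00 over all probe sets tested. Taking the brightest probe set of each gene, the differences with conditioning ran from -0.09 to 0.09 at 0 h and from -0.18 to 0.01 at 24 h. Their 95% intervals reached from -0.26 to 0.45 and from -0.36 to 0.36, and the number of arrays, 3 a group, limits the precision.

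Between the times, 1 of 19 (5.26%) passed in the non-conditioned arm, where 5.19% of all probe sets did, and 1 of 19 in the conditioned arm, against 4.62%. In both arms that probe set was Cpn, and it was lower at 24 h, as were 2.03% and 1.94% of all probe sets with a call in that direction. Averaged over the arms 2 of 19 (10.5%) passed, Cpn and eys 1633714_at, against 11.9% of all and 5.21% of all in the lower direction. These shares are near those of all probe sets. At an unadjusted p below 0.05 there were 4, 3 and 6 of 19, beside 17.9%, 18.2% and 24.3% of all (without conditioning, after it and on average). The medians of the 19 were 0.04 without and -0.05 after conditioning, beside 0.00 and -0.01 over all. The comparisons of the times and those of conditioning share arrays, so their differences are not independent of each other.

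Groups without overlap were likewise no more frequent than in general at 0 h, with 3 of 19 probe sets (15.8%) against the 17.6% given above, 2 of them higher after conditioning and 1 lower. At 24 h there were 5 of 19 (26.3%) against 10.5%. Of these 5, 4 were lower after conditioning (Cpn, Calx, crb and rdgC 1637386_at) and 1 was higher, the dim rdgA 1635851_at, at 29.8, 25.9 and 28.6 against 32.9, 31.2 and 31.6. No difference of the 5 passed the threshold. Between the times there were 5 of 19 in the non-conditioned arm against 19.2%, all lower at 24 h, and 5 of 19 in the conditioned arm against 28.2%, 4 of them lower.

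Where a gene had several probe sets, they seldom varied together. Over the 12 arrays the Pearson correlation of log2 values within rdgA ran from -0.29 to 0.44. It was 0.12 between the 2 probe sets of rdgB and -0.05 between those of rdgC, and within prom it ran from -0.22 to 0.41. Differences that appear in 1 probe set of a gene, as for eys, thus stand without a second reading on the same arrays.

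**Figure D4:**
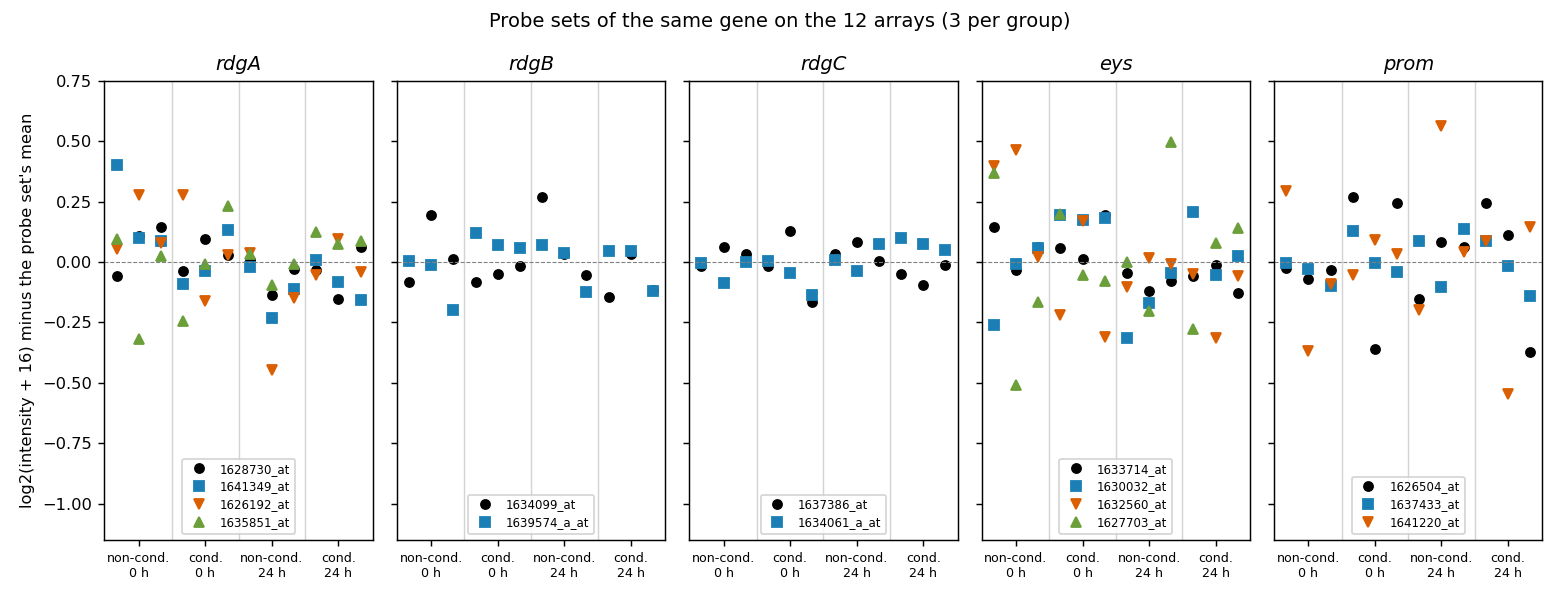
Level of each probe set on the 12 arrays, as log2(intensity + 16) minus the probe set's own mean (vertical axis), for the 5 genes with several probe sets; grey lines separate the 4 groups of 3 arrays, which have no order within a group. The points of different probe sets of a gene do not rise and fall together (correlations from -0.29 to 0.44), with the widest scatter for the dim eys and prom probe sets.

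The genes whose pattern over the 12 arrays was most like that of a member were found by Pearson correlation of log2 values with the member's brightest probe set. These values describe arrays that share groups and scaling, and carry no test. They include any step between the times, which passed the threshold on average for Cpn and eys alone. Cpn was most like Mpcp1 (r = 0.98), followed by Non1 and Mlc1 (both r = 0.96). Mpcp1 fell by 0.39 without and 0.45 after conditioning on the log2 scale (limma adjusted p = 0.000392 and 0.000181). The nearest gene to eys was Mf (r = 0.93), which fell by 0.20 on average (adjusted p = 0.0184). To chp it was COX4 (r = 0.97), with an averaged difference of -0.16 beside -0.14 for chp, and neither passed. For rdgA, rdgB and rdgC the nearest were RalGPS (r = 0.91), Hk (r = 0.91) and CG11619 (r = 0.87). For Calx, crb and prom they were TfAP-2 (r = 0.85), Moca-cyp (r = 0.90) and Pif1 (r = 0.85).

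Other genes of the same processes gave no calls for conditioning at either time. Of all probe sets tested, 0.533% passed for conditioning at 0 h and 0% at 24 h. Between the times 5.19% of all passed without conditioning, 4.62% after it and 11.9% on average over the arms. The counts below stand beside these shares. Since no probe set of the array passed for the interaction (807 of 11261 had an unadjusted p below 0.05), a gene named below with a call in 1 arm is not shown to differ between the arms. In the list of 12 tested phototransduction genes, 1 rose and 1 fell between the times on average by their brightest probe set. Gprk1, a kinase that phosphorylates rhodopsin, rose by 0.21 without and 0.25 after conditioning (limma adjusted p = 0.0235 and 0.00969). stops, needed for stable phospholipase C in the eye, fell by 0.25 after conditioning (adjusted p = 0.0178). Without conditioning the difference of stops was -0.08. Galphaq, the G protein alpha subunit that rhodopsin activates, rose by 0.18 on average (adjusted p = 0.0207) in a dimmer probe set, while its brightest was at -0.05. The brightest of the list, the arrestins Arr2 and Arr1, which shut off rhodopsin, had averaged differences of -0.06 and -0.15 and did not pass.

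Among 15 tested genes of the phosphoinositide cycle (16 listed), 1 rose on average and none fell. It was vib, another phosphatidylinositol transfer protein, which rose by 0.21 (limma adjusted p = 0.00765). The median over these 15 was -0.06 on average over the arms. The brightest were Cds and Pis, enzymes that follow rdgA in rebuilding the lipid, at -0.01 and -0.09.

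Of 17 tested calcium handling genes (18 listed), 1 rose and 2 fell on average over the arms, and their median was -0.05. The calcium pump gene SERCA fell by 0.22 in its brightest probe set (limma adjusted p = 0.0431) and by 0.29 in a second (adjusted p = 0.000639). It is strongly expressed in muscle as well, and its muscle share was not tested. The exchanger gene Nckx30C fell by 0.37 after conditioning (adjusted p = 0.0194), with -0.02 without it. Orai, a calcium entry channel, rose by 0.40 after conditioning (adjusted p = 0.0335) in its brighter probe set, while its other probe set was at -0.03. The channels trpl and trp, the brightest of the list, were at -0.12 and -0.09 on average and did not pass.

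In the list of apical membrane and rhabdomere partners, 9 of 14 genes were named and tested. One of them, kst, the heavy spectrin that binds the crumbs complex, rose by 0.33 without conditioning (limma adjusted p = 0.0477), and its difference after conditioning was 0.00. On average over the arms kst was at 0.16 (limma adjusted p = 0.124), and no gene of this list passed. The brightest, Moe and Amph, were at -0.08 and 0.04 on average. The median over the 9 was 0.11. None of 9 photoreceptor transcription factors passed in any comparison, and the brightest of these, pros and eya, differed by -0.04 and 0.09.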

How the data were processed

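The authors deposited linear intensities for 18952 probe sets on each array, and the sources used here do not give the program or background correction that made them. Gene names are those of the platform table, brought up to date by gene identifier in RefSeq; 13544 of 13647 probe sets with 1 symbol were found there, 402 had several symbols, 4903 had none, and neither kind was named. After removal of 183 control probe sets, the brightest 60% by mean were kept, 11261 in all, with a mean of at least 8.38. log2(intensity + 16), which understates differences of dim probe sets, was modelled on all 12 arrays in limma 3.58.1 (R 4.3.3), with 4 group means, a term separating the 8 arrays with a # in their title from the 4 without, and eBayes with a trend. Array medians, between 19.9 and 21.8, ranged over 0.08 on the log2 scale, below the 0.2 set for quantile normalization. The 7 comparisons were two-sided, adjusted by Benjamini-Hochberg over all probe sets kept. The fit was tested on simulated data. All probe sets of the 9 genes are described, and from the other lists the called genes and the brightest 2 of each, by brightest probe set; calls in dimmer probe sets of SERCA and Galphaq were named after their values were seen. Marker lists covered photoreceptors, neurons, glia, pigment cells, muscle, female fat body and male accessory gland. Summed intensities lay between 1465.5 and 1744 for 3 neuronal markers, between 3139 and 3524 for 3 of glia and between 271 and 348 for 2 of pigment cells. Members and lists were chosen with earlier results of these data known. Alternatives changed the title term, normalization, offset, filter, eBayes, weights, arrays and threshold.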

Additional observations from a re-analysis of the deposited data

How the results depend on the processing

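With 12 arrays and 3 a group, only large or tight differences could pass. Of 3219 recomputed values of the 19 probe sets, 17 lost and 20 gained a call, and no called value reversed; 202 values uncalled in both fits changed sign. The fall of Cpn averaged over the arms passed in 23 of 23 alternatives, from -0.34 to -0.29, and with each array left out. In the non-conditioned arm Cpn passed in 22 of 24, with an adjusted p of 0.0542 for the # arrays alone and 0.0896 with only the groups compared. In the conditioned arm Cpn passed in 22 of 24, with 0.0906 for the # arrays alone and 0.644 without the 3 yolk arrays. The averaged fall of eys passed in 10 of 23, from -0.17 to -0.10. The 2 calls averaged over the arms became 1 with the # arrays alone, median centring, no filter, eBayes without trend or without the yolk arrays, 3 without the title term, with quantile normalization, the upper 40%, array weights or a threshold of 0.10, and 1 to 3 with single arrays left out. The conditioned arm's 1 call became 0 with the # arrays alone or without the yolk arrays. The non-conditioned arm's 1 call became 2 without the title term, with quantile normalization, the upper 40%, array weights or a threshold of 0.10. It became 0 with the # arrays alone or only the groups compared, and 1 to 3 with single arrays left out, where the added calls were rdgA 1641349_at and, without non-conditioned 24 h replicate 1, also rdgA 1626192_at. For conditioning the 19 probe sets gave 0 calls in every alternative. Over all probe sets the counts moved more: from 60 to between 2 and 135 for conditioning at 0 h, from 0 to at most 8 at 24 h, from 0 to at most 18 for the interaction and from 13 to between 0 and 24 on average. For the times they moved from 584 to between 243 and 790 without conditioning, from 520 to between 13 and 1096 after it, and from 1343 to between 224 and 1793 on average; the 13 and 224 were without the yolk arrays. The causes were not tested. No paired analysis was possible because the replicate numbers follow the order of the series and pair no arrays across groups.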
